A study of Homo sapiens with 8 samples.

Results

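The genes described here are 6 inflammatory chemokines and a cytokine, CXCL8, CXCL2, CXCL3, CCL2, CCL3, CCL4 and IL1B, which are 7 of the 60483 gene identifiers in the count files. They were found by symbol from the Ensembl identifiers, and all 7 were matched. They were chosen by their counts in these same libraries, with the group differences already known, so their values are given as a description and carry no test. The cells were NB4, a line grown from acute promyelocytic leukemia, in which the nuclear body protein PML is fused to the retinoic acid receptor RARα. In every group the endogenous fusion had been knocked down by lentivirus, and the cells were collected after 72 h. The empty vector group received no replacement, the full-length group received HA-tagged PML/RARα, and the other 2 groups received F158E or ΔIDR, mutants described by the submitters as unable to phase separate. There were 2 libraries in each of the 4 groups. Since the knock-down was applied to every group, empty vector stands for knocked-down NB4 cells and not for untreated ones. How much of the endogenous fusion remained was not measured here. Whether the paired libraries stem from different cultures is not stated, so the spread between them, and every p-value below, may be technical.

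Chemokines are small secreted proteins that draw leukocytes along a gradient through G protein-coupled receptors. CXCL8 attracts neutrophils through CXCR1 and CXCR2, and CXCL2 and CXCL3 do so through CXCR2. CCL2 attracts monocytes through CCR2, and CCL3 and CCL4 act on monocytes and lymphocytes. IL1B encodes a precursor that caspase 1 cuts to active interleukin 1 beta, which signals through IL1R1 and IL1RAP and is opposed by the receptor antagonist IL1RN. In myeloid cells their transcription is known to depend on NF-kB, C/EBP and AP-1 factors, and their short-lived mRNAs carry AU-rich elements.

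The CXC members sit near each other on chromosome 4, and the bases just before their start sites are shown because 3 of these genes share a stretch of sequence. Each line gives the 150 bases before the RefSeq start (GRCh38.p14), 5′ to 3′ on the gene's strand: CXCL8 at chr4:73740419-73740568 on the plus strand, CXCL2 at chr4:74099196-74099345 on the minus strand, CXCL3 at chr4:74038690-74038839 on the minus strand, and their relative CXCL1, which is not a member, at chr4:73869243-73869392 on the plus strand. Capitals mark matches to the motifs named below.
CXCL8: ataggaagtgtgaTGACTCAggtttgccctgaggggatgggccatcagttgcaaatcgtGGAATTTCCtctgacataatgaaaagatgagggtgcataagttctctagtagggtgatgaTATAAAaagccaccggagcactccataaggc
CXCL2: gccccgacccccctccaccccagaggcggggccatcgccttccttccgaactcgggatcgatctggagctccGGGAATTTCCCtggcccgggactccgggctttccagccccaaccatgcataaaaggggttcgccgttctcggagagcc
CXCL3: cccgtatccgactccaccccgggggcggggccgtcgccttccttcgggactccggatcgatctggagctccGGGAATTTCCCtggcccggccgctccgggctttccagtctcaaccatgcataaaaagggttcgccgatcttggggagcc
CXCL1: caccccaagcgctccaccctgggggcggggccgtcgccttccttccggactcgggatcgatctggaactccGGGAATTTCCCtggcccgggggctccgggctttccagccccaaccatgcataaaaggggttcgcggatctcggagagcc

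All 4 windows held the 9 letters GGAATTTCC, at bases 91 to 83 before the start of CXCL8, 77 to 69 before CXCL2, and 78 to 70 before both CXCL3 and CXCL1. This string was chosen after the sequences were read, and 0.253% of 35116 RefSeq promoter windows of 150 bases held it on either strand. In CXCL2, CXCL3 and CXCL1 it lay inside a match to the standard NF-kB motif on both strands, a motif found in 6.19% of windows. CXCL8 also had TGACTCA, a match to the AP-1 motif TGANTCA (4.17% of windows, both strands), at bases 137 to 131, and TATAAA (4.54% of windows, plus strand only) at bases 31 to 26. The windows of CXCL2 and CXCL3 were 86.1% identical and those of CXCL2 and CXCL1 88.7%, while CXCL8 was 43.6% to 47.3% identical to these 3. RefSeq windows were found for 5 of the 7 members, CXCL8, CXCL2, CXCL3, CCL3 and IL1B. GENCODE release 29 holds longer models of these 5 genes that begin inside the windows. The windows of CCL3 and IL1B had no GGAATTTCC. CCL3, like CXCL8, had TATAAA on the plus strand, at bases 29 to 24. It also had a match to the C/EBP motif TTGCNNAA on the minus strand at bases 116 to 109 (5.02% of windows). In windows of 250 bases, where 9.05% held this motif, CXCL2 and IL1B also had a match. It lay on the minus strand at bases 188 to 181 in CXCL2, and on the plus strand at 215 to 208 in IL1B. AGGTCA, the core of retinoid receptor sites (7.63% of windows of 150 bases), was searched on both strands. It matched in none of the 6 windows of that length. A match is a description of the letters and does not show that a factor was bound.

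Levels below are CPM, a gene's count relative to the TMM-scaled total of its library, ± SD over 2 libraries, differences are log2 values ± SE from an edgeR fit over all 8 libraries, and libraries are given in the order replicate 1, replicate 2. The libraries held 16779364 to 21965389 gene counts each. In bulk RNA, fewer cells that make a transcript and less of it per cell cannot be told apart.

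CXCL8 (ENSG00000169429.9, chromosome 4, 73740506 to 73743716, plus strand), the main neutrophil attractant of human cells, was the best counted member. Its counts were 9081 and 9210 with empty vector, 575 and 600 with the full-length fusion, 5093 and 4957 with F158E, and 10254 and 13080 with ΔIDR. Scaled, the CPM values were 489.7 and 486, 32.7 and 34.99, 233 and 226, and 618 and 599. No 2 groups overlapped, the full-length libraries were lowest and the ΔIDR libraries highest. Full-length PML/RARα stood 14.4-fold below empty vector, a difference of -3.85 ± 0.04. F158E stood 2.13-fold below empty vector (-1.09 ± 0.03) and 6.78-fold above full-length (2.76 ± 0.04). ΔIDR stood 1.25-fold above empty vector (0.32 ± 0.03) and 17.98-fold above full-length (4.17 ± 0.04). The 2 libraries of each group differed by far less than any of these steps.

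CXCL2 and CXCL3 encode neutrophil attractants that bind CXCR2, and both were at the edge of detection. CXCL3 (ENSG00000163734.4, chromosome 4, 74036589 to 74038807, minus strand) had 39 and 13 counts with empty vector, 1 and 1 with full-length, 22 and 19 with F158E, and 30 and 56 with ΔIDR. The full-length libraries lay apart from all others, and the empty vector libraries spanned both F158E libraries and reached into the ΔIDR range. The 2 counts in the full-length group make the ratio of empty vector to full-length 24.1, with a 95% exact counting interval of 6.34 to 204. The F158E to full-length ratio was 16.3 (4.22 to 139), and the ΔIDR to full-length ratio was 38.9 (10.4 to 326). These intervals, like every one here, cover counting error only. F158E against empty vector was -0.57 ± 0.58 and became 0.45 without empty vector replicate 1, so CXCL3 gives no direction for that step.

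CXCL2 (ENSG00000081041.8, chromosome 4, 74097035 to 74099293, minus strand) had 21 and 32 counts with empty vector, 16 and 1 with full-length, 6 and 16 with F158E, and 36 and 46 with ΔIDR. Its full-length libraries spanned both F158E libraries, and both groups lay below every empty vector and ΔIDR library. The mean CPM was 1.41 ± 0.393 with empty vector, 0.484 ± 0.602 with full-length, 0.503 ± 0.323 with F158E and 2.14 ± 0.0462 with ΔIDR. Full-length against empty vector was -1.52 ± 0.67, -4.45 without full-length replicate 1 and -0.63 without full-length replicate 2. F158E against full-length was 0.04 ± 0.72, and changed sign to -0.85 without full-length replicate 2 and -0.81 without F158E replicate 2. CXCL2 was thus too low to order full-length and F158E. CXCL1, the relative whose transcript was 88.6% identical to that of CXCL2 over 1102 aligned bases, had 0 counts in every library. A count of 0 does not show that the gene was off. The way reads from such similar genes were assigned was not given in the sources used here, so the CXCL2 count may hold or lack reads of its relatives.

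CCL2 (ENSG00000108691.8, chromosome 17, 34255218 to 34257203, plus strand), the classic monocyte attractant, had 1158 and 1190 counts with empty vector, 114 and 88 with full-length, 667 and 623 with F158E, and 1488 and 1946 with ΔIDR. In CPM it stood at 62.5 and 62.8, at 6.48 and 5.13, at 30.5 and 28.5, and at 89.7 and 89.1. As in CXCL8, no 2 groups overlapped. Full-length PML/RARα was 10.8-fold below empty vector (-3.43 ± 0.11), and F158E was 2.13-fold below it (-1.09 ± 0.09). ΔIDR was 1.43-fold above empty vector (0.51 ± 0.08). F158E was 5.06-fold and ΔIDR 15.4-fold above full-length (2.34 ± 0.12 and 3.94 ± 0.11).

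CCL3 (ENSG00000277632.1, chromosome 17, 36088256 to 36090169, minus strand) and CCL4 (ENSG00000275302.1, chromosome 17, 36103590 to 36105621, plus strand) encode macrophage inflammatory proteins and are neighbours. CCL3 had 108 and 144 counts with empty vector, 1 and 9 with full-length, 69 and 105 with F158E, and 120 and 143 with ΔIDR. Its empty vector and ΔIDR libraries overlapped, the F158E libraries lay just below them in CPM (3.15 and 4.798 against 5.82 and 7.60), and the full-length libraries were far below all others. Full-length against empty vector was -4.51 ± 0.42, which ran from -6.73 to -3.66 over the alternative fits. ΔIDR against empty vector was 0.03 ± 0.27, and changed sign to -0.13 without empty vector replicate 1 and -0.03 without ΔIDR replicate 1.

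CCL4 had 56 and 68 counts with empty vector, 0 and 0 with full-length, 34 and 30 with F158E, and 69 and 116 with ΔIDR. No 2 groups overlapped. Against a floor of 3 counts over the full-length group, CCL4 was at least 38.3-fold higher with empty vector, at least 16.9-fold with F158E and at least 55.7-fold with ΔIDR. F158E stood at -1.17 ± 0.38 and ΔIDR at 0.52 ± 0.35 relative to empty vector. Both genes have near-identical copies, CCL3L3 and CCL4L2, with which reads may be shared, so their counts are uncertain. Transcripts of CCL4 and CCL4L2 were 94.7% identical over 397 aligned bases. CCL4L2 had 37 and 32, 0 and 0, 16 and 7, and 25 and 96 counts in the same group order, and CCL3L3 was at 6.82 ± 0.650, 1.29 ± 0.0990, 4.45 ± 0.289 and 6.41 ± 0.396 CPM.

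IL1B (ENSG00000125538.10, chromosome 2, 112829751 to 112836903, minus strand), the interleukin 1 beta gene, had 679 and 758 counts with empty vector, 32 and 52 with full-length, 297 and 334 with F158E, and 999 and 1334 with ΔIDR. Its CPM values were 36.6 and 40.0, 1.82 and 3.03, 13.6 and 15.3, and 60.2 and 61.1. No 2 groups overlapped. Full-length PML/RARα was 15.8-fold below empty vector (-3.98 ± 0.16). F158E was 2.66-fold below empty vector (-1.41 ± 0.12) and 5.94-fold above full-length (2.57 ± 0.17). ΔIDR was 1.58-fold above empty vector (0.66 ± 0.10) and 25.01-fold above full-length (4.64 ± 0.15).

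**Figure D1:**
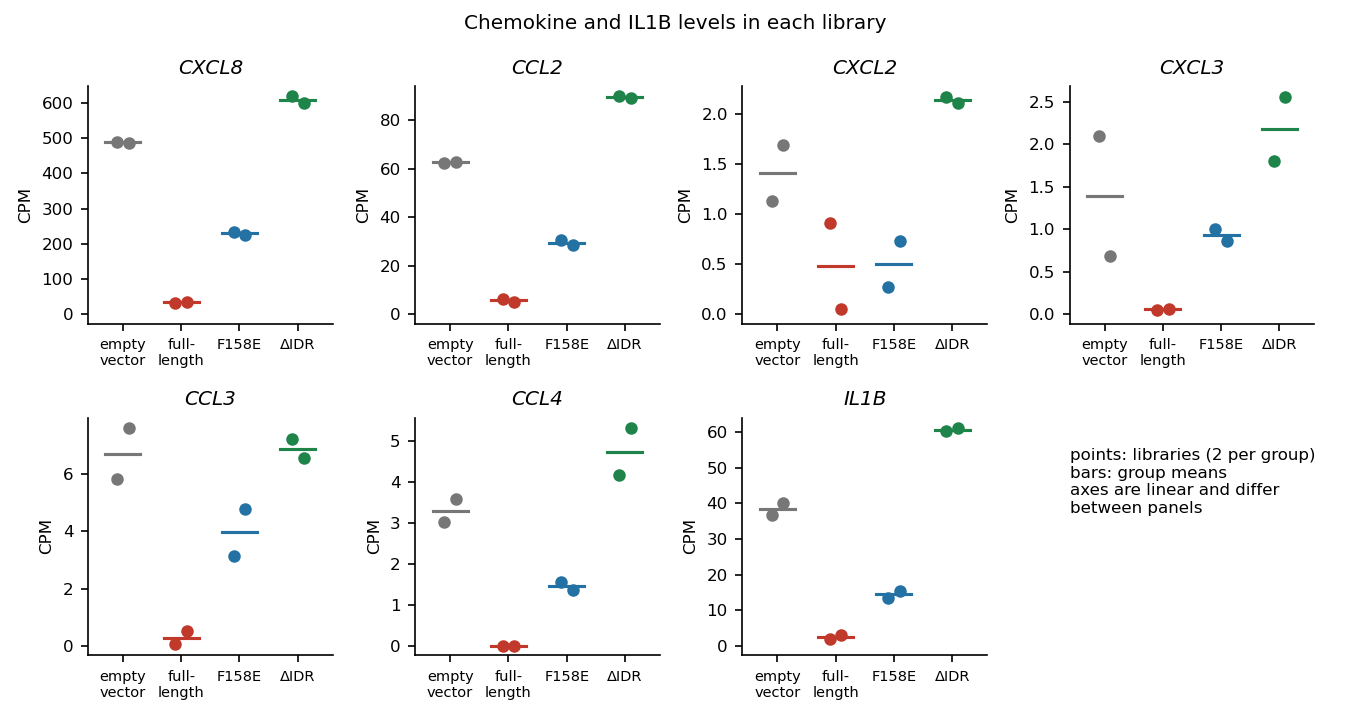
CPM of each of the 7 genes in every library, on linear axes that differ between panels; points are libraries (2 in each group) and bars are group means. Full-length PML/RARα has the lowest mean and ΔIDR the highest in each panel, with CXCL8 means of 33.8 and 609 CPM.

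Per kilobase of exon, the members spread over a wide range of levels. With empty vector CXCL8 stood at 215 CPM per kilobase, CCL2 at 31.5, IL1B at 12.4, CCL3 at 4.49, CCL4 at 1.63, CXCL2 at 0.940 and CXCL3 at 0.629. The 5 highest kept this order with F158E and ΔIDR. With full-length PML/RARα the 3 highest were again CXCL8 (14.9), CCL2 (2.92) and IL1B (0.784), and the other 4 had at most 16 counts in a library, too few to order.

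All 7 members passed the low-count filter, but CXCL3 and CCL4 passed with 0 or 1 count in each full-length library and CCL3 with 1 and 9. For these 3 the size of the full-length difference is therefore poorly bounded, although their full-length libraries were below every other library. CXCL2 libraries were lower in full-length and F158E than in empty vector, and lower there than in ΔIDR, but did not order full-length and F158E. CXCL8, CCL2 and IL1B had at least 32 counts in every library and could be ordered in all 4 groups.

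Group means ran in the order full-length, F158E, empty vector, ΔIDR in all 7 members. Between neighbours in this order, libraries overlapped for CXCL2 (full-length and F158E), for CXCL3 (F158E and empty vector, and empty vector and ΔIDR) and for CCL3 (empty vector and ΔIDR). Both full-length libraries were below both empty vector libraries in 7 of 7 members, where 35.6% of the 13982 genes tested were lower without overlap. F158E was above full-length without overlap in 6 members and below it in 0 (34.3% and 34.9% of all genes) and ΔIDR in 7 (36.5%). F158E was below empty vector in 6 (24.6%), ΔIDR was above empty vector in 5 (23.8%), and ΔIDR was above F158E in 7 (26.4%). The comparisons share libraries and the members were chosen with these values known, so the counts describe the members and test nothing.

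The median log2 difference of the 7 members was -3.98 for full-length against empty vector, 2.76 for F158E and 4.55 for ΔIDR against full-length. It was -1.09 for F158E and 0.52 for ΔIDR against empty vector, and 1.60 for ΔIDR against F158E. Over all genes tested the median lay between -0.00530 and 0.00464 in these comparisons, and placing CCL4 at its bound left each member median as it was.

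The members differed in how far F158E lay from empty vector. As a share of the empty vector mean, F158E was at 47.0% for both CXCL8 and CCL2, 37.6% for IL1B, 44.2% for CCL4, 59.2% for CCL3, 35.6% for CXCL2 and 67.1% for CXCL3. Full-length cells held 6.94% of the empty vector level of CXCL8, 9.27% of CCL2 and 6.33% of IL1B. With ΔIDR the shares ran from 102.7% for CCL3 and 124.7% for CXCL8 to 158.3% for IL1B. These shares are described for 2 libraries a group, and differences between genes in them were not tested.

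**Figure D2:**
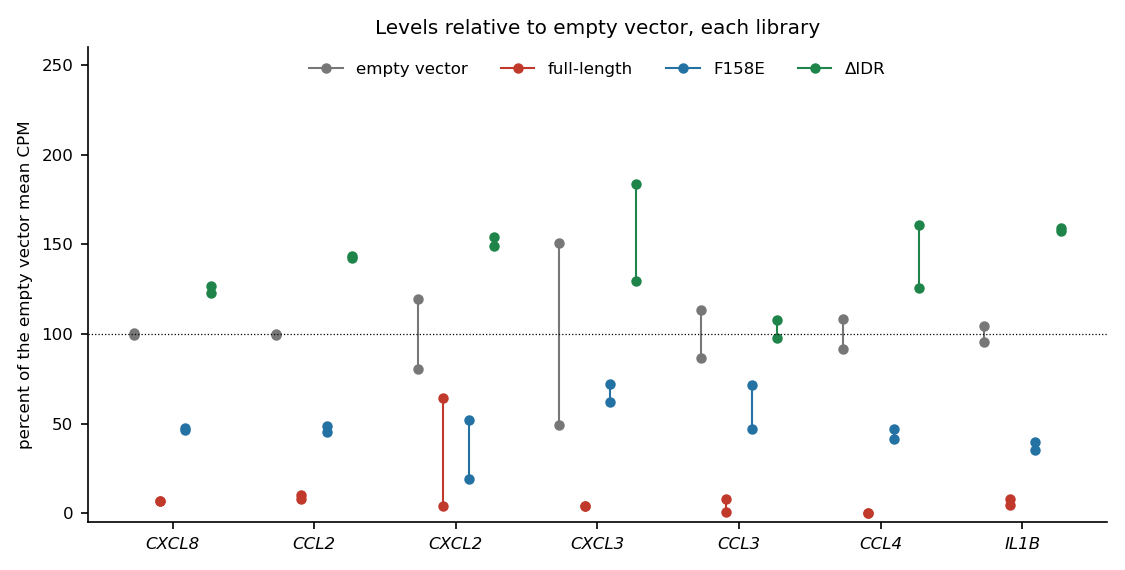
Level of each member in each library as a percentage of the empty vector mean CPM (linear axis); points are libraries, vertical lines join the 2 libraries of a group and the dotted line is 100%. F158E libraries of CXCL8, CCL2, CCL4 and IL1B lie between full-length and empty vector, and the full-length and F158E libraries of CXCL2 overlap.

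Of 86 other genes of the chemokine and IL-1 system (chemokines, their receptors, and IL-1 family ligands and receptors), 27 were counted well enough to test, 28 had 0 counts in all libraries and 2 had no matching identifier. With full-length PML/RARα 16 of the 27 fell against empty vector and 1 rose by edgeR's quasi-likelihood test at a Benjamini-Hochberg adjusted p under 0.05 over all genes, beside 24.4% and 24.2% of all genes tested (48.6% in either direction). The median log2 difference of the 27 was -1.21. Against full-length, 14 rose and 2 fell with F158E (22.2% and 21.8% of all genes, 43.9% together), and 19 rose and 2 fell with ΔIDR (24.9% and 24.9%, 49.9% together). CCL3L3 and CCL4L2 are among the genes called in each of these comparisons. They may share reads with the members CCL3 and CCL4, so their calls may not be separate from those members.

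Among the chemokine ligands, CXCL10, an interferon-induced attractant of T cells, fell from 8.14 ± 2.89 CPM with empty vector to 0.634 ± 0.0928 with full-length PML/RARα, by 3.67 ± 0.30 on the log2 scale (edgeR adjusted p = 8.9e-19). It was at 10.0 ± 2.74 CPM with F158E and 19.0 ± 0.117 with ΔIDR, so that F158E did not pass against empty vector (0.30 ± 0.19) and ΔIDR rose above it by 1.22 ± 0.19. CCL7, a monocyte attractant related to CCL2, had 51 and 49 counts with empty vector, 1 and 1 with full-length, 23 and 31 with F158E, and 89 and 170 with ΔIDR. Its ratio of empty vector to full-length was 46.3, with an exact counting interval of 12.5 to 388. CCL5, a T cell and monocyte attractant, fell less, from 96.5 ± 2.68 to 36.4 ± 0.529 CPM (-1.41 ± 0.07), and was at 80.0 ± 0.515 with F158E and 94.5 ± 1.05 with ΔIDR. CCL20, the ligand of CCR6, was at 11.6 ± 0.893, 2.76 ± 0.0320, 7.86 ± 0.772 and 8.21 ± 0.928 CPM with empty vector, full-length, F158E and ΔIDR.

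Of 9 tested chemokine receptor genes 4 fell with full-length PML/RARα and 0 rose (24.4% and 24.2% of all genes), so that the share called was near that of all genes (48.6%). CXCR2, the receptor for CXCL8, CXCL2 and CXCL3, fell with full-length PML/RARα from 7.71 ± 0.155 to 3.94 ± 0.703 CPM (-0.97 ± 0.22) and rose with ΔIDR to 11.9 ± 0.585 (0.63 ± 0.20 against empty vector), a call lost without any 1 of the empty vector or ΔIDR libraries. CCR1, a receptor for CCL3, fell by 0.85 ± 0.13 with full-length and rose by 0.79 ± 0.12 with ΔIDR, from 22.2 ± 1.81 CPM with empty vector. CXCR4, the receptor for CXCL12, fell by 1.61 ± 0.08 from 81.0 ± 0.726 CPM. The other CXCL8 receptor gene CXCR1 had 0 counts in every library. CCR2, the CCL2 receptor gene, had 2 to 19 counts and its difference between full-length and empty vector, 0.96 ± 0.88, did not pass.

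In the IL-1 family, IL1A, whose product shares the IL-1 receptor with that of IL1B, had 56 and 82 counts with empty vector, 4 and 0 with full-length, 24 and 37 with F158E, and 162 and 128 with ΔIDR. It fell with full-length (-4.92 ± 0.57, edgeR adjusted p = 3.6e-12) and with F158E (-1.40 ± 0.36), and rose with ΔIDR (1.08 ± 0.32). IL1RN, the receptor antagonist gene, rose with full-length PML/RARα from 1.87 ± 0.858 to 4.92 ± 0.115 CPM (1.39 ± 0.37, edgeR adjusted p = 0.0011), the 1 gene of the 27 that did so, and the call was lost at an adjusted p = 0.0643 without empty vector replicate 2. IL1RAP, the accessory chain of the receptor, fell by 1.36 ± 0.07 with full-length and by 0.37 ± 0.06 with F158E. IL1RL1, the IL-33 receptor gene, fell by 1.41 ± 0.12 with full-length and rose by 0.95 ± 0.10 with ΔIDR, to 57.0 ± 0.804 CPM. IL1R1 had 0 to 10 counts, IL1R2 0 to 3 and IL18 1 to 4, too low to test.

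Against empty vector, 5 of the 27 fell with F158E (CCL5, CCL4L2, CXCR4, IL1RAP and IL1A) and 0 rose, where 4.67% of all genes fell and 3.98% rose. CXCR4 and IL1RAP kept their calls in every alternative fit, while CCL5 was lost without empty vector replicate 1, IL1A without empty vector replicate 2 or F158E replicate 1, and CCL4L2 in 5 fits. The count was 3 without either empty vector replicate. With ΔIDR 8 rose (CXCL10, CCL7, CCR1, CXCR2, CXCR4, ACKR2, IL1RL1 and IL1A) and 0 fell, where 5.06% of all genes rose and 5.23% fell. CXCL10, CCR1 and IL1RL1 kept their calls in every alternative fit, and the count was 4 without empty vector replicate 1, empty vector replicate 2 or ΔIDR replicate 2 and 5 without ΔIDR replicate 1. At an adjusted p under 0.05, 12 of the 27 rose and 0 fell with ΔIDR relative to F158E (9.17% and 9.37% of all genes).

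**Figure D3:**
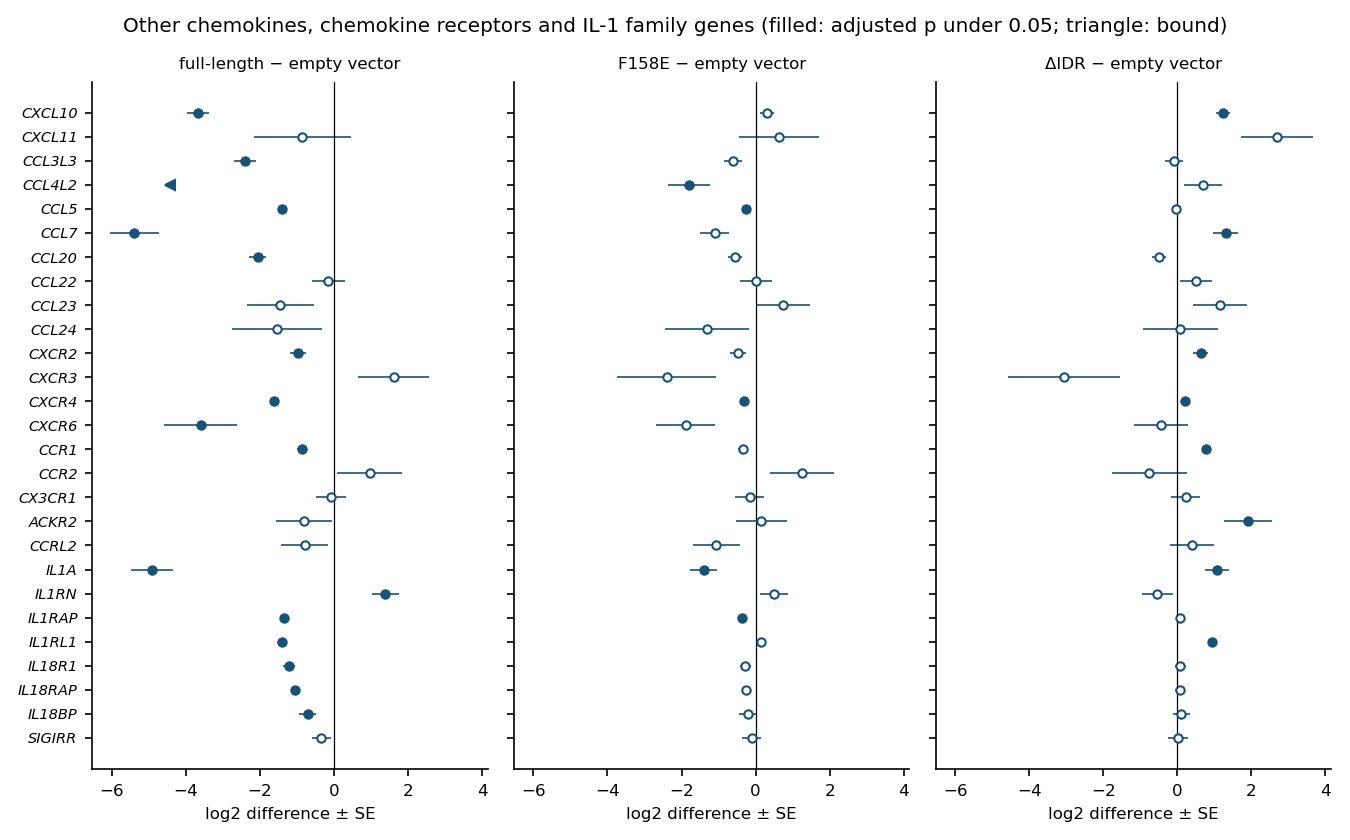
Log2 difference ± SE from edgeR for the 27 tested genes of the chemokine and IL-1 system in each group against empty vector; filled points passed an adjusted p under 0.05 and the triangle is the bound for CCL4L2, which had 0 counts with full-length PML/RARα. Left of 0 lie 16 filled symbols for full-length and 5 for F158E, and 8 lie right of 0 for ΔIDR.

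RNA of regulator genes was read from lists, and any effect of these genes on the members was not tested. Of 17 tested NF-kB subunits and inhibitors, 11 fell and 2 rose with full-length PML/RARα (24.4% and 24.2% of all genes), with a median of -0.79. TNFAIP3, an NF-kB target that restrains the pathway, had 121 and 116 CPM with empty vector, 12.8 and 14.2 with full-length, 109 and 107 with F158E, and 95.04 and 106 with ΔIDR. It fell by 3.13 ± 0.08 with full-length (edgeR adjusted p = 5.5e-52), was at -0.14 ± 0.06 with F158E, which did not pass, and fell by 0.24 ± 0.06 with ΔIDR, a call lost without empty vector replicate 1 (edgeR adjusted p = 0.1336) or ΔIDR replicate 1 (0.2312). NFKB2 and NFKB1, subunit genes, fell by 2.08 ± 0.07 and 1.18 ± 0.05 with full-length, and RELA, the p65 subunit gene, rose by 0.36 ± 0.07. NFKBIA, the IκBα gene, fell from 114 ± 7.09 to 33.7 ± 2.35 CPM and was at 100.5 ± 4.27 with F158E and 124 ± 1.86 with ΔIDR. With F158E 3 of the 17 fell against empty vector, with a median of -0.15, and with ΔIDR also 3, with a median of -0.06, where 8.65% and 10.3% of all genes passed in either direction. Of the F158E calls, NFKB2 held in every alternative fit, while NFKB1 and NFKBIA were each lost in 5. Of the ΔIDR calls, NFKB1 was lost without ΔIDR replicate 2, TNFAIP3 as given above, and RELB, another subunit gene, without either empty vector replicate or ΔIDR replicate 1.

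Of 15 C/EBP and AP-1 factors, 9 fell and 2 rose with full-length PML/RARα (24.4% and 24.2% of all genes). CEBPB, a C/EBP factor of inflammatory gene induction, fell from 20.6 ± 2.06 to 7.13 ± 1.18 CPM (-1.53 ± 0.15) and stood at 16.1 ± 0.414 with F158E and 42.0 ± 0.770 with ΔIDR, where it rose above empty vector by 1.03 ± 0.12. JUN and JUND, AP-1 subunits, fell by 1.30 ± 0.10 and 1.63 ± 0.10 with full-length, and FOS and FOSB, their partners, rose by 1.51 ± 0.15 and 3.07 ± 0.35. In the order empty vector, full-length, F158E, ΔIDR, FOS was at 9.89 ± 0.264, 28.2 ± 3.77, 5.05 ± 0.289 and 12.5 ± 1.49 CPM.

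Of 21 tested genes of IL-1 processing and signalling, 7 fell and 4 rose with full-length PML/RARα (24.4% and 24.2% of all genes), about the share of all genes called. IRAK2, a kinase-like adaptor of IL-1 receptor signalling, fell from 17.5 ± 0.299 to 1.01 ± 0.0588 CPM (-4.11 ± 0.24), and stood at 9.84 ± 1.199 with F158E and 10.6 ± 0.983 with ΔIDR, both below empty vector (-0.83 ± 0.17 and -0.73 ± 0.17). The call for ΔIDR was lost at an adjusted p = 0.0557 without ΔIDR replicate 2. MYD88, the adaptor next to the receptor, rose by 0.69 ± 0.12 with full-length. CASP1, the enzyme that cuts the IL1B precursor, did not pass with full-length (0.07 ± 0.25) and rose with ΔIDR from 4.17 ± 1.195 to 11.3 ± 1.09 CPM (1.44 ± 0.24). NLRP3, the inflammasome sensor gene, fell by 0.33 ± 0.14 with full-length, a call lost in 7 of the alternative fits.

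Of 16 genes that stabilise or degrade AU-rich mRNAs, 7 fell and 7 rose with full-length PML/RARα (24.4% and 24.2% of all genes), with a median of 0.00. ZFP36, which encodes a decay factor for such mRNAs, did not pass (0.17 ± 0.21), ZC3H12A, a cytokine mRNA nuclease gene, fell by 1.22 ± 0.15, and KHSRP, another decay factor gene, rose by 0.65 ± 0.03. Among 15 other inflammatory cytokines 9 fell and 1 rose (24.4% and 24.2% of all genes). TNF, the tumour necrosis factor gene, went from 20.1 ± 0.826 to 8.25 ± 1.69 CPM (-1.28 ± 0.16), to 15.4 ± 0.943 with F158E and 16.7 ± 0.152 with ΔIDR, and IL6 had 0 to 2 counts in a library.

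**Figure D4:**
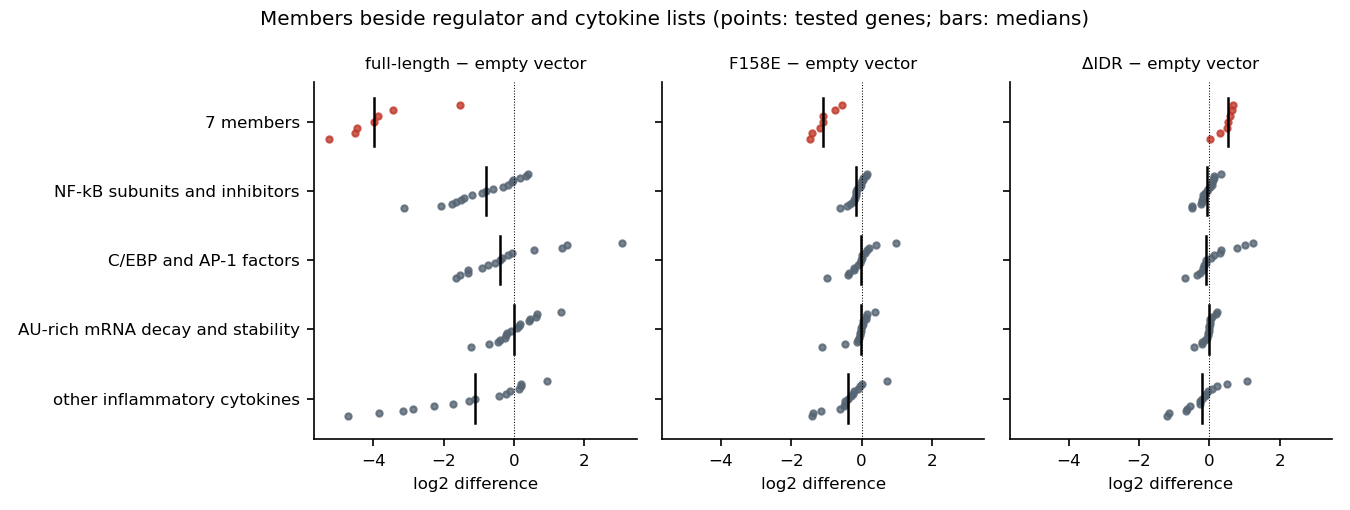
Log2 difference of the 7 members and of the tested genes of 4 other lists, in each group against empty vector; points are genes, bars are medians, and CCL4 is drawn at its bound for full-length PML/RARα. The medians of the members are -3.98, -1.09 and 0.52, and those of the NF-kB list -0.79, -0.15 and -0.06.

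RNA of the fusion partners differed between the groups, and so did that of some cell type markers. RARA averaged 23.1 ± 1.41 CPM in empty vector cells, 77.0 ± 1.88 in full-length, 32.3 ± 0.181 in F158E and 1358 ± 9.67 in ΔIDR cells, and PML at 51.9 ± 1.28, 124 ± 4.33, 65.9 ± 0.219 and 442 ± 3.42. The mutation and the amount of RARA and PML RNA cannot be told apart. All 5 tested monocyte and macrophage markers of 9 fell with full-length PML/RARα, as did all 6 tested promyelocyte markers, where 24.4% of all genes fell. The 9 monocyte and macrophage markers summed to 104 to 114 CPM with empty vector and 56.6 to 59.6 with full-length. With F158E they summed to 77.0 to 77.9 and with ΔIDR to 96.1 to 99.6. CD14, a defining monocyte marker, had 14 and 27 counts with empty vector, 1 and 0 with full-length, 7 and 7 with F158E, and 2 and 17 with ΔIDR, and FCGR3A had at most 1 count. The part of these markers in the chemokine values was not tested. Promyelocyte markers, 6 of 7 tested, summed to 8499 to 8633 CPM with empty vector, 5918 to 5945 with full-length, 8202 to 8295 with F158E and 11087 to 11091 with ΔIDR. MPO, the myeloperoxidase gene of promyelocytes, had at least 58947 counts in every library, while ELANE, the neutrophil elastase gene, had 0 to 2. Late neutrophil markers summed to at most 14.8 CPM and erythroid markers to at most 0.275. With full-length PML/RARα 1 of the 2 tested late neutrophil markers fell and 1 rose, and 0 erythroid markers could be tested. Of 4 tested fibroblast, endothelial and epithelial markers, PECAM1 and VWF fell and EPCAM and COL3A1 rose with full-length PML/RARα. That is 2 each way, beside 24.4% and 24.2% of all genes. The calls of VWF, EPCAM and COL3A1 were lost in some alternative fits. The 8 markers of this list summed to 46.2 to 55.5 CPM with full-length and 72.0 to 72.3 with empty vector. With F158E this sum was 61.3 to 63.3 and with ΔIDR 86.2 to 88.5. Among 4 tested lymphoid markers 1 fell and 0 rose with full-length PML/RARα. The lymphoid markers summed to 26.5 to 34.1 CPM with full-length and 39.7 to 40.0 with empty vector. Their sum was 26.3 to 28.3 with F158E and 46.9 to 48.0 with ΔIDR.

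The protein-coding genes whose profile over the 8 libraries lay nearest to that of CXCL8 were PTPRO, TNFSF15, SIGLEC6, BIRC3, BTG2 and OASL. Nearness was the root mean square distance between log2 CPM profiles, each centred on its own mean, with a prior count of 2. PTPRO, a receptor tyrosine phosphatase gene, lay at 0.177 and had 33 and 32 counts with empty vector, 0 and 0 with full-length, 20 and 18 with F158E, and 39 and 46 with ΔIDR. The other 5 lay at 0.302 to 0.346. BTG2, an antiproliferative gene, was the best counted, at 32.5 ± 2.38, 3.32 ± 0.589, 17.9 ± 2.01 and 33.7 ± 1.46 CPM with empty vector, full-length, F158E and ΔIDR. BIRC3, an inhibitor of apoptosis, was at 6.20 ± 2.21, 0.404 ± 0.0887, 2.67 ± 0.0313 and 5.35 ± 0.191 CPM. Of the members, CCL2 lay at 0.207, IL1B at 0.292, CXCL3 at 0.506, CCL4 at 0.556, CCL3 at 0.602 and CXCL2 at 1.17, so only CCL2 and IL1B were nearer than TNFSF15 at 0.302. The prior count draws low genes such as PTPRO towards less extreme values. With a prior count of 0.5, 4 of the 6 genes were again among the nearest, and ranked by Pearson's r, 1 of 6.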

How the data were processed

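The data are raw counts per gene, deposited by the authors as 1 file for each of 8 NB4 libraries, 2 in each of 4 groups. Per the labels' protocols, total RNA was depleted of ribosomal RNA and made into libraries with a NEBNext Ultra kit, and builds hg38 and GRCh38 come from the submitters' processing notes. Aligner, counter, annotation and strand setting are not given in the sources used here, so reads of overlapping or near-identical genes may be split. Genes took 87.9% to 88.7% of recorded reads, and the 5 lines for unassigned reads were left out. Symbols came from a table of gene names that held 56321 of 60483 identifiers, and positions from GENCODE release 29.

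Counts were fitted with edgeR 4.0.16 in R 4.3.3 (quasi-likelihood, all 8 libraries, TMM factors 0.989 to 1.01, filterByExpr), which left 13982 genes. Benjamini-Hochberg adjustment ran over all of them in each of 6 comparisons, and calls are adjusted p under 0.05. The fit was tested on simulated data. Alternatives were other scalings, no filter, fits on 2 groups, a replicate block, each library left out, and DESeq2 1.42.0; reading them for single list genes was added after seeing the data. Promoter windows came from RefSeq tables and transcript identities from Biopython 1.88 alignments.

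The members, the 15 lists and the tests were chosen with earlier results of these data known. Named genes were the members, PML, RARA, a panel of 20 related genes (1 is not reported here), the 6 genes nearest to CXCL8, and in each list those called for full-length PML/RARα against empty vector, smallest adjusted p first, up to 4 that moved as most of the list did and up to 2 that moved the opposite way. CCL4L2, ACKR2, RELB, CD14, FCGR3A and ELANE were named outside this rule after their values were seen.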

Additional observations from a re-analysis of the deposited data

How the results depend on the processing

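Of 588 alternative member values 5 changed sign, all by leaving out 1 library and all in CXCL2, CXCL3 or CCL3 as given with those genes. Leaving out 1 library in turn gave 5669 to 6887 genes called (6794 with all libraries) for full-length against empty vector, 5047 to 6209 (6140) for F158E and 5992 to 7003 (6971) for ΔIDR against full-length, and 1813 to 2602 (2592) for ΔIDR against F158E. Against empty vector it gave 638 to 1272 (1210) for F158E and 884 to 1485 (1439) for ΔIDR. The F158E count fell to 638 and 675 without empty vector replicates 1 and 2 and to 778 and 764 without F158E replicates 1 and 2, and the ΔIDR count to 944 and 884 without empty vector replicates 1 and 2. Counts against empty vector were lower only where the library left out belonged to a compared group, and the cause was not tested. The calls in the chemokine and IL-1 system ran in the same way from 14 to 17, 13 to 16, 18 to 22, 9 to 14, 3 to 7 and 4 to 9.

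The other alternatives called 6406 to 6879, 5665 to 6155, 6582 to 6991 and 2369 to 2664 genes in the first 4 of these comparisons, and 1061 to 1343 and 1304 to 1447 against empty vector. Of 365 calls of list genes, 269 held under every alternative and 0 were reversed. Same-numbered libraries did not deviate together over all genes tested (r from -0.0163 to 0.0206). Counting noise enters these deviations, so r near 0 cannot show whether the replicate number pairs them. With the replicate block 6778, 6107, 6929, 2599, 1212 and 1433 genes were called in the same order, and 17, 16, 21, 13, 6 and 7 in the chemokine and IL-1 system. Depth limits CXCL2, CXCL3, CCL3 and CCL4, and 2 libraries a group limit every SD.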
